A study of Mus musculus with 4 samples.

Results

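The regions described here lie in the part of mouse chromosome 13 given as its cluster of replication-dependent histone genes. They are stretches of convergent transcription, in which nascent transcripts of both strands were found over the same DNA. Members were chosen by position, as every deposited region that overlapped the windows from 21.7 to 22.3 Mb or from 23.5 to 24 Mb of chromosome 13 (mm9, positions counted from 1). The 4 libraries held 36, 40, 34 and 33 such regions. Merged across libraries at 1 or more shared bases they gave 56 members, of 20175 merged regions in the genome, and all 56 lay wholly inside the windows. The windows were drawn after regions with higher signal in early G1 cells had been seen there, so differences between the groups are given below as a description and support nothing. The nearest region outside them was at chr13:21622637-21623104, with signals of 16.8 in unsynchronized replicate 2 and 27.7 in early G1 replicate 2. On the other side it was at chr13:24185777-24186420, with a signal of 3.16 in unsynchronized replicate 1.

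Global run-on sequencing (GRO-seq) reads RNA that polymerases already on the DNA go on to make in isolated nuclei. It was applied to splenic B cells of Fucci-EGFP+ C57BL/6 mice activated in culture with LPS, IL4 and Rp105. All libraries carry the Fucci-EGFP reporter, whose fluorescence follows the cell cycle. A group of 2 libraries came from unsynchronized cells. The other 2 came from early G1 cells: nocodazole, which arrests cells in mitosis, was given at 100 ng/ml from 42 h after isolation for 6 h, the EGFP+ cells were sorted and returned to culture, and early G1 cells were sorted 1.5 h later. The deposited name of early G1 replicate 1 says 1 h. Nuclei came from about 20000000 cells. These steps are recorded for the early G1 cells, so drug, sorting and return to culture cannot be told apart from the cell cycle phase. The labels leave unstated whether a replicate is another mouse or culture, so the spread between libraries, on which every test rests, may be technical. Since the libraries are bulk samples, fewer cells that transcribe a region and less transcription per cell cannot be told apart. The files name no genes, so neither the B cell identity nor the name of the cluster was checked against genes in them.

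Replication-dependent histone genes encode the linker histone H1 and the core histones H2A, H2B, H3 and H4, which package newly made DNA. Their messenger RNAs are short, lack introns and end in a stem-loop in place of a poly(A) tail, and their expression is known to peak in S phase. Many lie in tight arrays in which an H2A and an H2B gene face away from each other and share the DNA between their starts.

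The gene names given for the cluster comprise 5 H1, 11 H2A, 12 H2B, 9 H3 and 8 H4 genes. All 45 were found in the RefSeq gene table, which is of GRCm38.p6 and not of the files' build. No coordinates were converted, so no region is assigned to a gene. Within it, 7 pairs of listed genes, each an H2A and an H2B gene, lay head to head with 163 to 248 bases between their starts. The same stretch of the table holds 245 genes, among them 77 tRNA genes and 75 vomeronasal receptor genes and pseudogenes (Vmn1r), so a region in the windows need not belong to a histone gene. Upstream sequences were given for 42 of the 45 genes. In the 250 bases upstream of the start, CCAAT on either strand was present in 88.1% of them against 34.5% of 27025 genes of the table, and TATAAA in 52.4% against 13%. Both genes of a head-to-head pair share most of these bases, so the 42 sequences are not all separate stretches of DNA. The letters AAACACA, known as a box of H1 promoters, were present in 4 of 5 H1 genes, in 1 of 11 H2A and 1 of 11 H2B genes and in no listed H3 or H4 gene (6.22% of the table). CCAAT was found for all H1, H2A, H2B and H3 genes with a sequence, but for 3 of 8 H4 genes. These matches are of letters and show no bound factor.

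The sequences below show the kind of DNA the cluster is built of, with the shortest stretch shared by an H2A and an H2B gene and the upstream 200 bases of the first listed H1, H3 and H4 gene with a sequence, in order along the chromosome. They are from RefSeq (GRCm38.p6), read 5′ to 3′ on the strand of the named gene, and end at the base before its start. Capitals mark matches to the 3 motifs above on either strand.
Hist1h2ak and Hist1h2bn (chr13:21753913-21754075, plus strand, the 163 bases between the starts): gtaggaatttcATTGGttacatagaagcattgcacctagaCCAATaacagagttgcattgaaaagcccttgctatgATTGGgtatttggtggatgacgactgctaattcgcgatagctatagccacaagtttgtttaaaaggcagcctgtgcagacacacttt
Hist1h1b (chr13:21780626-21780825, minus strand): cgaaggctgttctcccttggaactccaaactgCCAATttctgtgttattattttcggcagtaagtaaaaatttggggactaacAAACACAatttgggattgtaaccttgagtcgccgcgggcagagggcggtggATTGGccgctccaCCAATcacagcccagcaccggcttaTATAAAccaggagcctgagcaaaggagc
Hist1h3h (chr13:21717428-21717627, plus strand): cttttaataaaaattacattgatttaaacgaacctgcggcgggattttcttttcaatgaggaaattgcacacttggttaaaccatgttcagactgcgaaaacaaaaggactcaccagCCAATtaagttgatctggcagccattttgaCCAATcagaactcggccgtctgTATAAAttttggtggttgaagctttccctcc
Hist1h4k (chr13:21750554-21750753, minus strand): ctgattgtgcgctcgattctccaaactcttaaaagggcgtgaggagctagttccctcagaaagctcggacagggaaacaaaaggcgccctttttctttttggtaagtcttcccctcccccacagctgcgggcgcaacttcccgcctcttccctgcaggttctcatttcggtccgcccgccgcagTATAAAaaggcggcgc
The H2A and H2B pair shows 3 CCAAT matches in 163 bases and no TATAAA, the H1 gene shows all 3 motifs, and the H4 gene shows TATAAA alone.

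Each deposited region carries a signal that the authors named a geometric mean. Squared and multiplied by the square of the length, it gave whole multiples of a constant of the library (multiples below 5000, tolerance 0.1) for 100% of the 2833, 2351, 3384 and 2164 regions tested, as does a geometric mean of the reads of both strands divided by length and a library constant. "Reads" below means that recovered mean. If the constant scales as in RPKM, library sizes were 14720000 and 13480000 (unsynchronized) against 8170000 and 9520000 (early G1) after rounding, so depth differed with the group. Reads of the cluster's median region were 974 and 1340 for unsynchronized cells and 899 and 1186 for early G1 cells, against 127 to 180 for the rest of chromosome 13. Counting error was then at least 1.93% to 2.36% of its signal, below the median difference between replicates given further on. Histone genes of a family are near-identical in their coding parts. The sources used here do not give how reads that map to several copies were treated, and the value of any single member is uncertain to that extent.

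The cluster was dense and strong in every library. Regions per Mb numbered 32.7 and 36.4 for unsynchronized cells and 30.9 and 30.0 for early G1 cells, against 3.48 to 4.23 per Mb in the rest of the chromosome. Its regions took up 3.78%, 4.94%, 5.30% and 5.37% of the called length of chromosome 13 (unsynchronized replicates 1 and 2, early G1 replicates 1 and 2). They carried 25.1%, 30.5%, 31.4% and 21.7% of the signal (signal times length). The cluster's median signal was 63.7 and 111.3 for unsynchronized cells and 104.2 and 102.7 for early G1 cells. In the rest of the chromosome it was 10.6 and 15.1 against 16.9 and 19.2. The ratio of cluster to rest was thus 5.34 to 7.36, with a geometric mean of 6.18, and above 1 in 4 of 4 libraries (exact sign-flip permutation over libraries, two-sided p = 0.13, the smallest that 4 libraries allow). The windows were chosen with earlier results of these data known. This test and the test of length given further on are therefore no independent support.

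The rank within a library does not depend on the authors' scaling, and by rank the cluster stood as high. Of its regions, 26 of 36, 24 of 40, 25 of 34 and 21 of 33 were in the top 10% of their library's signals. In the rest of chromosome 13 this share was 5.76% to 9.43%. The median member region lay at the 96.8th to 97.7th percentile of its library. Of the 42 merged regions of the genome that exceeded the 99th percentile in all 4 libraries, 8 were members. These strong regions were short. The longest member spanned 2654 bp and none reached 5 kb, whereas the rest of the chromosome had 12 to 20 regions over 5 kb per library and regions of up to 36490 bp. The median called length was 721, 770, 923 and 707 bp in the cluster and 850 to 991 bp elsewhere on the chromosome. It was below that of the rest in 4 of 4 libraries (exact sign-flip permutation p = 0.13, the smallest possible), but not so for the first window alone, where the mean log2 ratio was 0.18 in place of -0.23.

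**Figure D1:**
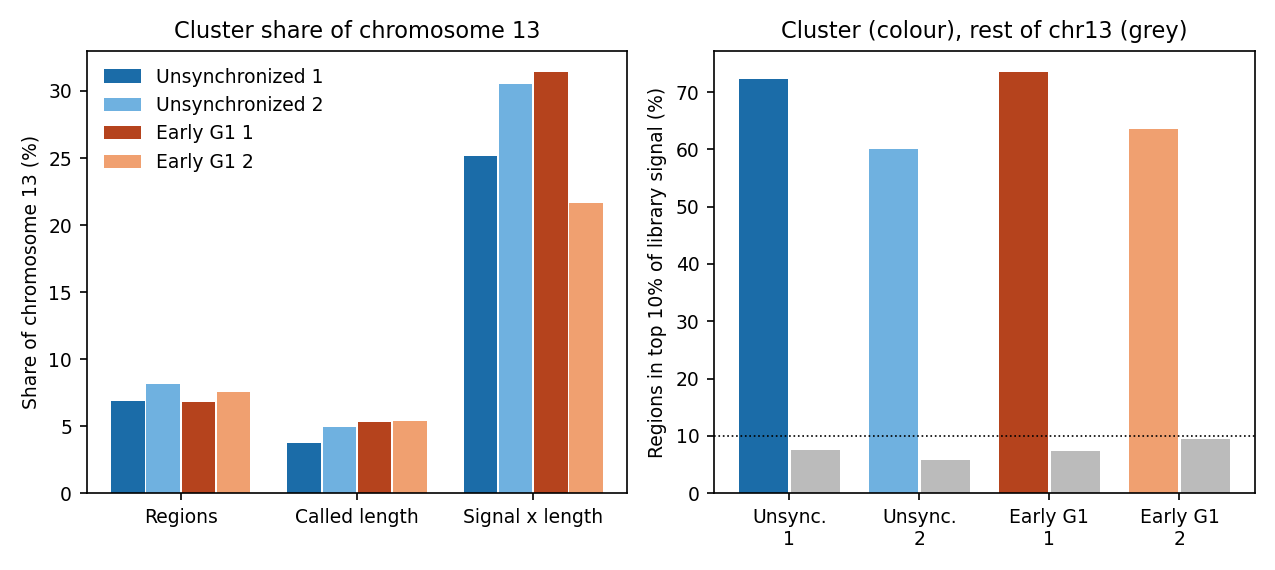
Left: share of chromosome 13 held by the cluster in each library (%), by number of regions, called length and signal times length. Right: share of regions in the top 10% of their library's signals (%), for the cluster (colour) and the rest of chromosome 13 (grey); the dotted line is at 10%. The cluster held 3.78% to 5.37% of the called length but 21.7% to 31.4% of the signal.

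Across the cluster as a whole, the groups overlapped in share of signal, in median signal and in called length. Its share of chromosome 13 signal was 27.8% ± 3.78 for unsynchronized against 26.5% ± 6.91 for early G1 cells (SD, n = 2). The highest share and the lowest were both those of early G1 libraries. Its median signal was 87.5 ± 33.6 against 103.4 ± 1.07 and its called length 33.1 ± 3.11 kb against 34.1 ± 4.98 kb (SD, n = 2), and in both the groups overlapped. Across the rest of the chromosome the groups did not overlap: the median signal was 12.9 ± 3.20 for unsynchronized against 18.1 ± 1.64 for early G1 cells (SD, n = 2). The number of called regions, 38 ± 2.83 against 33.5 ± 0.71 (SD, n = 2), was lower in both early G1 libraries. These are also the shallower ones by the inferred sizes. In the rest of the chromosome the number was 470 ± 26.9 against 434 ± 43.8 (SD, n = 2), and the groups overlapped. The cluster's share of chromosome 13 regions, at means of 7.50% against 7.19%, overlapped as well. The part of depth in the number of called regions was not tested. The cluster's share of called length was higher in both early G1 libraries, while the rest of the chromosome had fewer regions over 5 kb there (15 and 12 against 19 and 20).

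The members fell into 3 blocks, separated by more than 100 kb without a region. Block A (chr13:21802357-21878758) held 15 members in 76.4 kb, block B (chr13:22032240-22142650) held 9 in 110.4 kb and block C (chr13:23515126-23853873) held 32 in 339 kb. Between blocks A and B lay 153481 bp, and between B and C 1372475 bp, without a call in any library. The sum of signal times length in kb was 624 and 1553 (unsynchronized) against 1562 and 851 (early G1) for block A. For block B it was 758 and 1224 against 2713 and 949, and for block C 2889 and 4148 against 4820 and 3094. In each block the groups overlapped, and the first early G1 library was the highest of the 4. The covered length of block A was 7.22 and 6.61 kb against 12.8 and 8.83 kb, and its mean signal 86.5 and 235.0 against 122.5 and 96.4. In blocks B and C the covered length was 6.84 and 9.40 kb against 6.78 and 5.21 kb, and 16.8 and 19.3 kb against 18.1 and 16.5 kb.

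A call was made in all 4 libraries for 22 of 56 members (39.3%), against 24.6% of all merged regions, and in a single library for 22 (39.3%, against 39.9%). Another 7 members were called in 3 libraries and a single member, chr13:22036891-22037672, in 1 library of each group. Both unsynchronized libraries and neither early G1 library called 3 members (5.36%, against 4.98% of all merged regions), and the reverse held for 1 (1.79%, against 3.7%). With 3 members and 1 member, neither share is read as a result about the cluster.

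The 3 members called in unsynchronized cells alone were in the top 10% of signals where they were called. Member 6 (numbered in order along the chromosome) at chr13:21827258-21827529 had signals of 134.3 and 172.6 on 128 and 246 bp. Member 38 at chr13:23642572-23643242 had signals of 128.6 and 192.2 on 671 and 669 bp with 1270 and 1733 reads. The weakest of them, member 21 at chr13:22126000-22127081, had signals of 35.5 and 78.9. The member called in early G1 cells alone, member 52 at chr13:23839485-23840870, had signals of 29.5 and 6.54 on 1230 and 393 bp, and the latter value rests on 24 reads. A signal of 0 was listed for 1 call in each library but early G1 replicate 1, where none was. No call in a library says only that the region is not in its list.

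The members of highest signal included a region seen in a single library. Member 1, chr13:21802357-21802889, had a signal of 511.4 in early G1 replicate 1 and no call in the other libraries. It was among the 5 of highest mean signal over the libraries that called them, with members 12, 20, 27 and 40. The 5 longest were members 19 and 35, of 2654 bp each, and members 4, 41 and 13, of 2435, 2161 and 1947 bp.

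**Figure D2:**
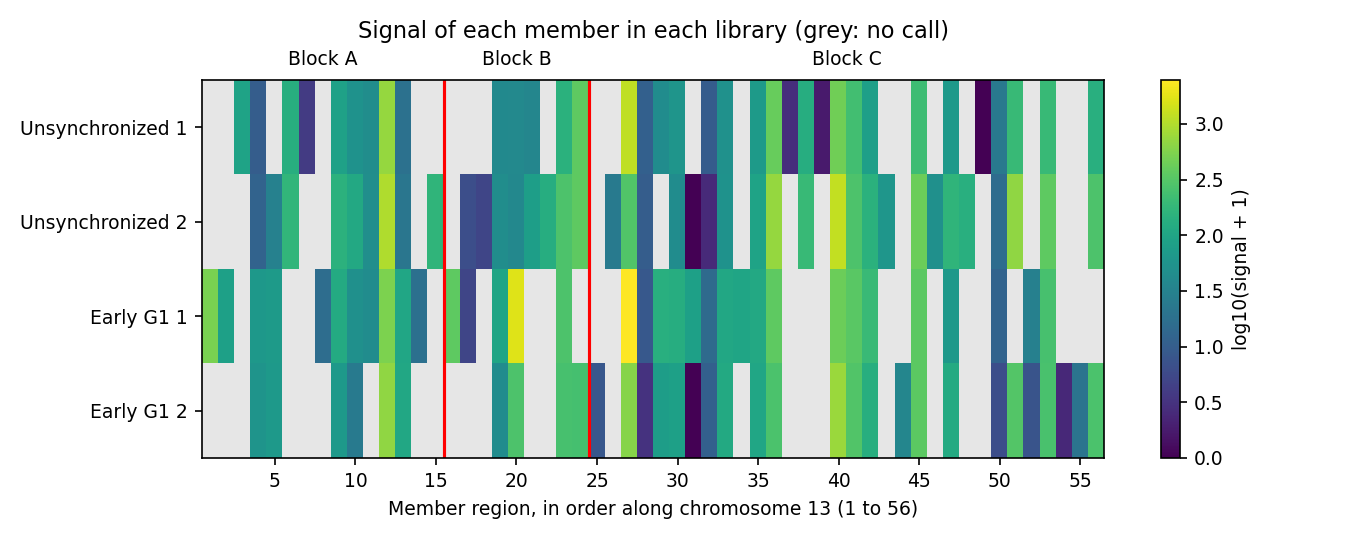
Signal of the 56 members (columns, in order along chromosome 13) in the 4 libraries (rows), as log10(signal + 1); grey cells had no call, and red lines separate the 3 blocks. 22 columns are filled in all 4 rows and 22 in a single row.

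Block A held 5 of the 22 members called in all 4 libraries. Member 4 at chr13:21809885-21812319 had signals of 8.99 and 11.1 (unsynchronized) against 62.8 and 55.5 (early G1). Both early G1 libraries were above both unsynchronized libraries, at a mean of 59.1 ± 5.14 against 10.05 ± 1.49 (SD, n = 2, 5.89-fold). Its called length was 1011 and 977 bp against 2402 and 2243 bp, so the call was also wider. Member 5, at chr13:21813927-21815249 and 1607 bp further on, had no call in unsynchronized replicate 1 and signals of 30.4 in unsynchronized replicate 2 and 69.0 and 67.2 in the early G1 libraries. Member 3 at chr13:21808642-21809473 ended 411 bp before member 4. It was called in unsynchronized replicate 1 alone, with a signal of 92.0 and 1126 reads. Member 2 at chr13:21806848-21807694 was called in early G1 replicate 1 alone, with a signal of 84.5. When regions within 1 kb are joined, both merge with member 4, and the log2 change fell from 2.45 to 1.39.

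Members 12 and 13 lay 437 bp apart and differed in signal in opposite directions. Member 12 at chr13:21871424-21872500 had signals of 710.6 and 991 (unsynchronized) against 529.4 and 674 (early G1). Its called length was 416 and 1076 bp against 1075 and 422 bp. The signal was above the 99th percentile of each library, and lower in both early G1 libraries. By signal times length the groups of member 12 overlapped, with a log2 change of -0.48, against 4.27 for member 13. Member 13 at chr13:21872938-21874884 had signals of 17.6 and 20.2 against 101.3 and 107.8, on 620 and 455 bp against 1750 and 1946 bp. It moved from the 71.6th and 63.0th percentile of its library to the 96.7th and 97.6th. Merged with member 12, as happens when regions within 1 kb are joined, the log2 change turned from 2.41 to -0.95.

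The remaining shared members of block A were not higher in early G1 cells. Member 9 at chr13:21840315-21842112 had signals of 85.5 and 148.8 against 118.4 and 67.5, and the groups overlapped. Member 10 at chr13:21843356-21845247 had 53.3 and 110.2 against 48.9 and 23.4, and was lower in both early G1 libraries.

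In block B, 3 members were called in all 4 libraries. Member 20 at chr13:22121066-22122063 differed most of all 22, with signals of 38.3 and 36.9 (unsynchronized) against 1719 and 278.3 (early G1). Reads were 411 and 226 against 14009 and 1874. The early G1 libraries differed 6.18-fold from each other, and the log2 change of 4.17 was 2.85 with the first early G1 library left out and 5.48 with the second left out. Member 19 at chr13:22111821-22114474 had signals of 39.6 and 44.9 against 98.9 and 43.4. Member 23 at chr13:22132638-22134426 had 146.3 and 277.2 against 280.5 and 256.4. In both the groups overlapped, and member 23 was above the 99th percentile in every library.

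Block C, the largest, held 14 members with a call in all 4 libraries. The strongest of all members, member 27 at chr13:23518332-23519060, had signals of 1171 and 297.8 (unsynchronized) against 2481 and 597.5 (early G1). Replicate 1 exceeded replicate 2 in both groups, so the replicates differed more than the groups did. Member 40 at chr13:23646834-23648037 had 458.9 and 1192 against 422.5 and 763.4, with replicate 2 the higher in both groups. Its groups overlapped as well.

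In 3 further strong members of block C the group means were close. Member 41 at chr13:23663644-23665804 had signals of 234.8 and 281.5 (unsynchronized) against 338.5 and 300.7 (early G1), on 1997 to 2161 bp and 5925 to 7575 reads. Member 45 at chr13:23713143-23713903 had 221.4 and 433.7 against 347.1 and 346.5. Member 53 at chr13:23842861-23844260 had 190.7 and 358.5 against 256.1 and 266.1. They were above the 99th percentile in each library, and the means of the groups lay within 1.24-fold of each other.

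Members higher in both early G1 libraries were 5 of 14 in this block. Member 33 at chr13:23609535-23610776 had signals of 51.7 and 52.9 against 107.0 and 113.4, a 2.11-fold difference on called lengths of 1071 to 1228 bp. Here replicates nearly coincided, and both early G1 calls, of 1200 and 1228 bp, were longer than the unsynchronized ones, of 1170 and 1071 bp. Member 30 at chr13:23537300-23538246 had 58.7 and 43.4 against 130.5 and 85.1, also 2.11-fold. Member 35 at chr13:23623268-23625921 had 68.9 and 91.9 against 109.5 and 102.7. Member 32 at chr13:23598443-23599099 had 8.82 and 1.56 against 13.9 and 10.1, and its lowest value rests on 4 reads. The fifth was member 41, given above. By signal times length the groups of member 32 overlapped.

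Members lower in both early G1 libraries were 3 of 14. Member 36 at chr13:23626065-23626808, 143 bp beyond member 35, had signals of 405.3 and 717.9 against 352.2 and 274.2. Member 50 at chr13:23801820-23802791 had 22.4 and 14.7 against 11.1 and 5.29, and member 28 at chr13:23523784-23524512 had 10.1 and 9.09 against 7.73 and 2.12. The latter 2 are weak, with 4 to 192 reads. Member 42 at chr13:23666570-23667707 had 81.0 and 147.4 against 196.1 and 135.1. Member 47 at chr13:23776387-23777908 had 65.8 and 165.4 against 64.1 and 119.2. In both the groups overlapped. By signal times length the groups of members 36 and 50 overlapped as well, and member 28 stayed lower in both early G1 libraries. Member 50 was called on 111 and 972 bp against 835 and 377 bp.

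**Figure D3:**
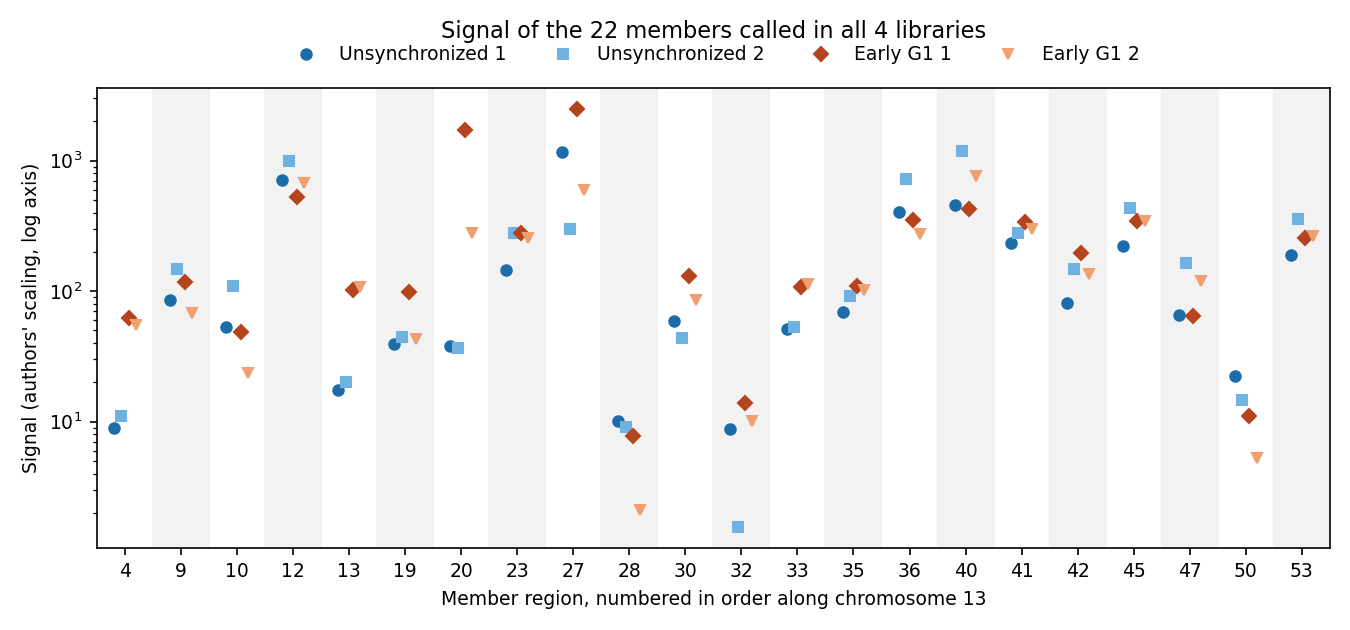
Signal of the 22 members called in all 4 libraries (log axis, authors' scaling), each point a library. Members 4, 13 and 20 show the widest separation of the groups, and members 27 and 40 show replicates that differ more than the groups.

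Across the 22 shared members the groups did not overlap in 13: both early G1 libraries were higher in 8 (36.4%, against 43.9% of the 4972 regions of the genome called in all 4 libraries) and lower in 5 (22.7%, against 4.67%). These shares come from the contrast that drew the windows, and nothing is read from them. The log2 change, early G1 minus unsynchronized on the log2(signal + 1) scale, was above 0 in 13 of 22, against 78% of all shared regions, and its median was 0.36 against 0.41. When each library was divided by its median, both early G1 libraries were higher in 4 of 22 members, against 968 of the 4972 shared regions. They were lower in 10 members, against 1141 of the shared regions. The median log2 changes were then -0.10 and -0.03. For signal times length, both early G1 libraries were higher in 8 members and lower in 2, against 2016 and 335 of the shared regions. Nothing is read from these counts either. In the limma fit across the genome, 3 members passed an adjusted p of 0.05 as higher and 0 as lower, where 0.302% of all shared regions passed as higher and 0.0402% as lower. These were members 4, 13 and 20, with log2 changes of 2.45 (SE 0.41), 2.41 (SE 0.40) and 4.17 (SE 0.63). The contrast they passed in helped choose the windows, so their passing is no independent result. It was lost for all 3 when libraries were divided by their medians, when signal times length was compared, without the limma trend, and without unsynchronized replicate 1 or 2 (0 called in each), and kept for member 20 alone when regions within 1 kb were merged. In those of these fits that kept all 4 libraries, calls in the whole genome fell as well. From 15 higher and 2 lower they went to 0 after division by the medians and for signal times length. Without the trend they were 1 higher and 1 lower, and with regions within 1 kb merged 3 higher and 0 lower. Without unsynchronized replicate 1, which leaves that group a single library, calls as higher in the whole genome did not fall. Among these fits the log2 changes of members 4, 13 and 20 stayed well above 0 where the regions were not merged: they were 2.01, 1.96 and 3.71 after division by the medians, 3.79, 4.27 and 4.75 for signal times length, and the same without the trend. Among the 19 others, log2 changes ran from -1.15 at member 10 to 1.36 at member 32.

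Replicates spread widely in the cluster. The median fold between replicates of a shared member was 1.64 for unsynchronized against 1.42 for early G1 cells, and the largest folds were 5.65 (member 32) and 6.18 (member 20). The median residual SD of the shared members was 0.49 on the log2 scale, against 0.39 over all shared regions. Unsynchronized replicate 2 was above replicate 1 in 16 of 22 members and in 3855 of 4972 regions, and early G1 replicate 2 was above replicate 1 in 6 of 22 and in 2355 of 4972. In 9 of the 22 the longest call was at most 1.5 times the shortest.

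**Figure D4:**
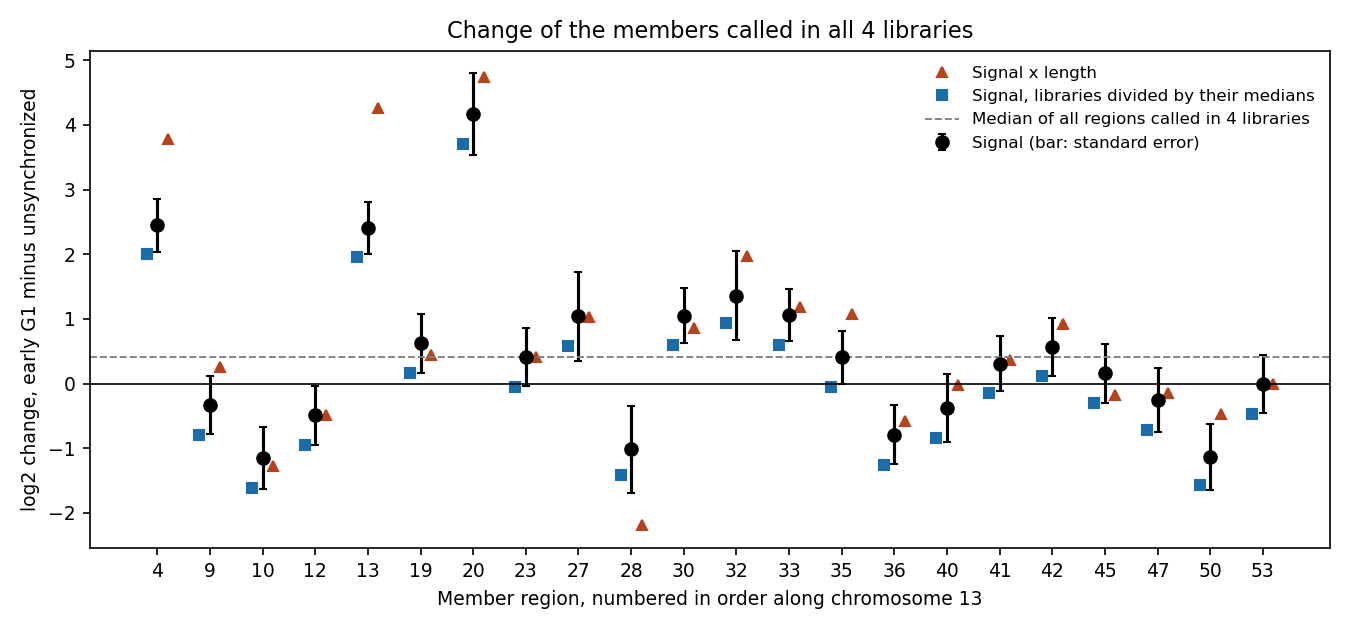
Log2 change (early G1 minus unsynchronized) of the 22 shared members for signal (black, bar: limma standard error), signal times length (triangles) and signal after dividing each library by its median (squares); the dashed line is the median of all 4972 shared regions, 0.41. Members 4, 13 and 20 lie at 2.41 to 4.17 for signal, and the 19 others between -1.15 and 1.36.

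Fixed bins of 10 kb do not move with the edges of calls. Of 20 bins of the cluster with a call in all 4 libraries, 14 had a log2 change above 0 (70%, against 72.3% of 5667 bins in the genome) and 5 had both early G1 libraries on top (against 39.4%). No bin had both early G1 libraries below both unsynchronized libraries, against 7.27% of all bins. With libraries divided by their median bin, 4 were on top and 3 below, against 1122 and 1248 of the 5667 bins. By limma 0 of the 20 passed an adjusted p of 0.05 (0.0176% of all bins passed as higher and 0% as lower). At an unadjusted limit of 0.05, 2 were higher and 0 lower, against 562 and 86 of the 5667 bins. Leaving out early G1 replicate 1 gave 1 bin past the adjusted threshold as higher, and leaving out early G1 replicate 2 gave 5 as higher and 1 as lower. In these fits early G1 is a single library assumed to vary like the unsynchronized ones, and calls as higher in the whole genome went from 1 to 127 and 254. The widest difference was in the bin of members 4 and 5, chr13:21810001-21820000, with sums of signal times length in kb of 9.09 and 20.6 (unsynchronized) against 215.8 and 203.6 (early G1). The bin chr13:21870001-21880000, which holds members 12 and 13, had 306.5 and 1193 against 751.3 and 494.3, and its groups overlapped. The bin of member 20, chr13:22120001-22130000, had 63.0 and 273.5 against 1716 and 196.8, and overlapped as well. In the bin chr13:23660001-23670000, with members 41 and 42, sums were 563.2 and 709 against 881.1 and 754.6. At this width the groups were separate around member 4 and overlapped around members 13 and 20, whose bins also hold other members. Member 3, with a signal of 92.0 on 832 bp in unsynchronized replicate 1 alone, ends at 21809473. That is before the bin of member 4 begins, so its signal is not in those sums and the separation depends on the bin edge. In bins of 5 kb the one with member 20, chr13:22120001-22125000, was separate, with a log2 change of 4.68 (SE 0.94). By limma 0 of the 21 passed the adjusted threshold, as did 0 of 6390 in the genome. At an unadjusted limit of 0.05, 3 were higher and 0 lower, against 690 and 93 in the genome.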

How the data were processed

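The authors deposited a list of convergent transcription regions for each of the 4 GRO-seq libraries, per the file headers, with a signal per region, called a geometric mean in the names of the files, of unstated scaling. BWA 0.7.12, HOMER and mm9 stand in the submitters' processing notes, and the sources used here do not give the calling of regions. Titles gave each sample's group and number. Overlapping regions were merged, and a library's value was the length-weighted mean of its regions. Regions called in all 4 libraries, and 10 kb bins of signal times length in kb, were fitted across the genome with limma 3.58.1 in R 4.3.3 (log2(value + 1), trend, two-sided, Benjamini-Hochberg), tested on simulated data. Ratios to the rest of chromosome 13 were compared by exact sign-flip permutation. Named regions are those called in all 4 libraries, those called in both libraries of a single group, and the 5 longest and 5 strongest. Members outside this rule (members 2, 3 and 5 and a region called in 1 library of each group) were named after their values were seen, as were the blocks. The members, windows and rules were chosen with earlier results of these data known. Alternatives covered merging, pseudocount, scaling, filters, trend, the replicate block and leaving out libraries. No mm9 genome or annotation was used, so regions carry no gene names or sequences.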

Additional observations from a re-analysis of the deposited data

How the results depend on the processing

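The 3 calls among shared members became 1 with regions within 1 kb merged (member 20) and 1 with the replicate block (member 20). They became 0 with each library divided by its median, with signal times length and without the limma trend. They were also lost without either unsynchronized library. A fit without 1 library leaves a group with a single library, so effect sizes are given for these fits. The log2 change then ran from 2.31 to 2.59 for member 4, from 2.32 to 2.51 for member 13 and from 2.85 to 5.48 for member 20. Calls in the whole genome were 15 higher and 2 lower in the main fit, 3 and 0 with merging and 4 and 0 with the block. They were 0 after division by the medians and for signal times length, and 1 and 1 without the trend. The labels give replicate numbers without saying that they pair libraries, and 2 pairs are too few to settle it. Deviations of same-numbered libraries correlated at 0.10 over all shared regions and 0.53 over the 22 shared members. With the replicate block the residual SD of member 27 was 0.04 in place of 1.42. Bins of the cluster at an unadjusted limit of 0.05 were 5 higher and 1 lower in place of 2 and 0. Over the 5667 bins of the genome they were 603 and 116 in place of 562 and 86. In this balanced design a block cannot move a mean difference. Member 13 changed sign with merging within 1 kb (-0.95), where member 12 joins it. The log2 change of member 4 fell from 2.45 to 1.39 with this merging, where members 2 and 3 join it. Of the 19 uncalled shared members, 8 changed sign under at least 1 of the 11 alternative fits, and member 27 passed without early G1 replicate 2, with the remaining early G1 library assumed to vary like the unsynchronized ones. The count of called 10 kb bins was 0 in the planned fit and ranged from 0 to 6 when a library was left out. The ratio of median lengths to the rest of the chromosome turned from -0.23 to 0.18 (log2) for the first window alone. Leaving out a library moved the difference in regions from -6.50 to -2.50, in covered length from -2.48 to 4.57 kb, in share of signal from -6.16 to 3.61 percentage points and in summed signal from -0.15 to 0.74 (log2, 0.30 with all libraries). The latter was -0.17 with libraries divided by their medians. The log2 ratio of median signals ranged from 2.54 to 2.70 when a library was left out. With signals above the 25th percentile (8.51), 4 members were called in unsynchronized cells alone and 0 in early G1 cells alone, an alternative chosen after seeing the data. Shares over the genome were not computed at this threshold, so nothing is read from these counts. The part of depth, which differed with the group, was not tested. The lowest values of members 28, 32 and 50 rest on 4 to 19 reads.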

Other observations

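Some of the strongest members had no call in early G1 replicate 1. Member 24 at chr13:22141685-22142650 had signals of 360.8 and 352.6 in unsynchronized cells and 247.7 in early G1 replicate 2. Member 51 at chr13:23831199-23831923 had 190.6, 671.6 and 306.5, and member 56 at chr13:23852050-23853873 had 139.6, 275.6 and 272.2 in the same libraries. Each lay above the 99th percentile in all 3 libraries that called it. Across the genome 12 merged regions were called in exactly 3 libraries and above the 99th percentile in each of them, and 5 of these lacked a call in early G1 replicate 1, of which 3 were members. Member 16 at chr13:22032240-22032911 was the reverse, with a signal of 358.5 in early G1 replicate 1 and no call elsewhere, as was member 1. All were picked with their values in view.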
